A study of Mus musculus with 6 samples.

Results

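The integrated stress response is a shared pathway by which cells answer amino acid shortage, misfolded protein in the endoplasmic reticulum, haem shortage or viral RNA. Each stress activates a kinase that phosphorylates the initiation factor eIF2. General translation then slows while the mRNA of the transcription factor ATF4 is translated more, so that ATF4 activity is set largely by translation and its mRNA level is not a measure of the protein. In liver, ATF4 drives genes of amino acid synthesis, uptake and redox balance. The 6 genes described here are Atf4 itself and 5 genes induced downstream of it, namely Ddit3, Trib3, Ppp1r15a, Asns and Chac1. They were chosen by name, with earlier results of these data known, as every probe set annotated to exactly 1 of these symbols. All 6 were on the array, with 7 probe sets in all, among 17097 genes with such a probe set. Atf4 had a pair of probe sets and each of the other 5 genes had 1, and a gene is represented by its probe set of highest mean over the 6 arrays. All 6 genes passed the limit for dim signal given below.

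Liver RNA was compared between mice lacking Nrg4, which encodes the secreted ErbB ligand neuregulin 4, and wild-type mice. The Nrg4 knockout group (KO) and the wild-type group (WT) had 3 arrays each, and every array carried an independent pool of liver RNA. Both groups are labelled C57BL/6 and had eaten a high-fat diet for 8 weeks, begun when the mice were 3 months old, and both were random-fed at harvest. How many mice made a pool, their sex and how the Nrg4 allele was made are not given in the sources read here. The p-values measure the spread between pools. Nrg4 read 2.56, 2.43 and 2.64 on the KO arrays and 4.94, 4.79 and 4.77 on the WT arrays (log2 RMA signal; limma adjusted p = 4.76e-05), as the labels say. The hepatocyte marker Alb averaged 12.36 ± 0.05 in KO livers and 12.32 ± 0.02 in WT livers (SD, n = 3 each). Array medians lay between 2.98 and 3.04. None of the 6 genes lies on chromosome 9, which carries Nrg4.

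No integrated stress response gene passed the test between genotypes. Chac1 and Asns had the largest differences of the 6, both towards higher signal in KO livers, while Trib3, Ddit3, Ppp1r15a and Atf4 differed by at most 0.15 on the log2 scale. Of the 6 genes, 0 were called by limma at an adjusted p under 0.05, where 0.0401% of the 12466 genes tested were called. At an unadjusted p under 0.05, 2 of 6 were higher in KO livers, Chac1 and Asns, against 7.36% of all genes tested. The median log2 change was 0.10 over the 6 genes and 0.04 over all genes tested, and 5 of the 6 had a higher mean in KO livers, as did 63.4% of all genes tested. The median of the 6 genes moved with single arrays. It was 0.21 without KO replicate 1, 0.18 without KO replicate 2, 0.17 without WT replicate 1, 0.15 without WT replicate 3 and 0.09 without WT replicate 2. Without KO replicate 3 it was 0.030, below the 0.034 of all genes tested in that run.

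**Figure D1:**
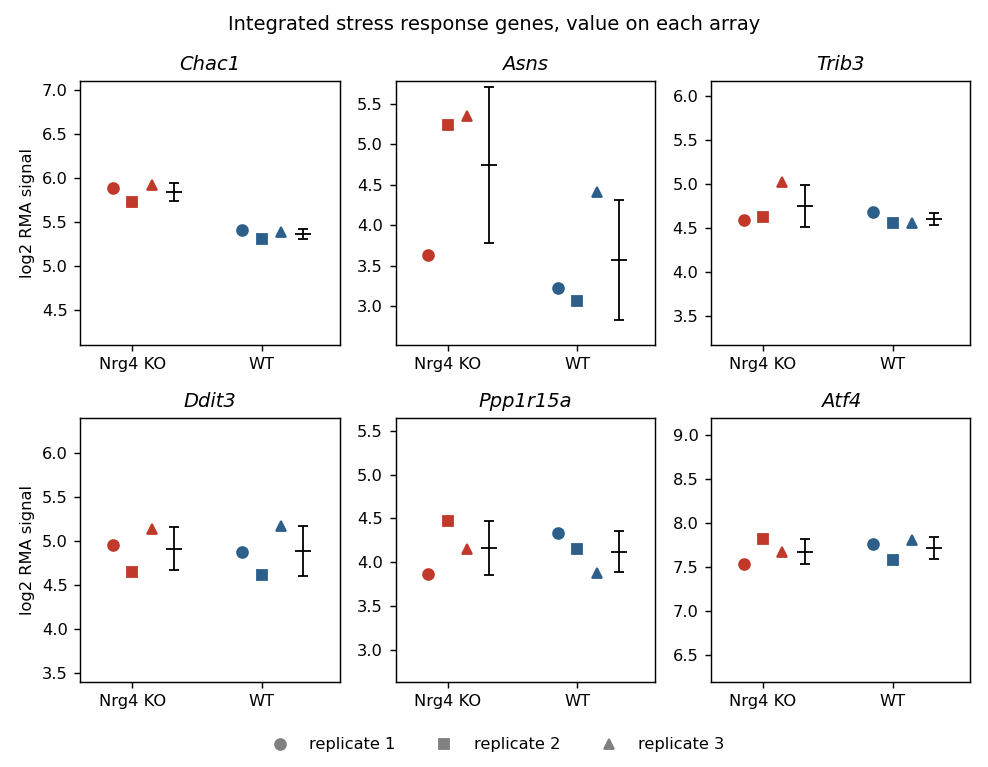
Log2 RMA signal of the 6 integrated stress response genes on each array, with KO arrays in red left of WT arrays in blue; the marker shape gives the replicate number and the bar beside each group its mean ± SD (n = 3). Chac1 separates the groups, with KO arrays at 5.73 to 5.92 and WT arrays at 5.30 to 5.41, whereas the groups overlap in the other 5 genes.

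The promoters of Chac1 and Asns are shown because these genes had the largest differences and because ATF4 is known to act through a composite C/EBP-ATF response element. The letters TGATGNAA, the core of that element, were searched on both strands from 250 bases before to 50 bases after the annotated start (RefSeq, GRCm38.p6), and all 6 genes had a promoter in that table. The upstream part is chr2:119350992-119351241 on the plus strand for Chac1 and chr6:7693210-7693459 on the minus strand for Asns, written 5′ to 3′ with the match in capitals.
Chac1: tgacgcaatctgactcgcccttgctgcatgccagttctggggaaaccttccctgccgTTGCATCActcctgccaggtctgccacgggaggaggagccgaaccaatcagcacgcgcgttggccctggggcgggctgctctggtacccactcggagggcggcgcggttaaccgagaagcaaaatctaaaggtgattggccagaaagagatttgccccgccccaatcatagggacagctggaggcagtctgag
Asns: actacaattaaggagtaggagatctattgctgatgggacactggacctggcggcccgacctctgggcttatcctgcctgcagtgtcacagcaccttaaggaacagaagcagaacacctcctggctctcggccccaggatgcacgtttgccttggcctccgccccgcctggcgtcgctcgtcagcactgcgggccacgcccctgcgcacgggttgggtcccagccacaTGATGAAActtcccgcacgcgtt
Trib3: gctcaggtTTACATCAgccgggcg

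The Chac1 match is read on the strand opposite to the gene and begins 193 bases before the start, and the Asns match is read on the strand of the gene and begins 23 bases before it. The Trib3 match, shown with 8 bases on either side (chr2:152344031-152344054, minus strand of the genome), begins at base 15 counted from the start and is read on the strand opposite to the gene. Ddit3, Ppp1r15a and Atf4 had no match in their windows, which says only that these letters are not there. Of all 32851 promoters in the table, 3.97% held a match. A match is a description of letters and not a binding site.

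Atf4 encodes the factor that gives the pathway its transcriptional arm. Its main probe set read 7.53, 7.82 and 7.67 in KO livers and 7.76, 7.58 and 7.81 in WT livers, so the groups covered the same range. The means were 7.67 ± 0.14 and 7.72 ± 0.12 in KO and WT (SD, n = 3 each), a log2 change of -0.04 (95% interval -0.28 to 0.20, limma adjusted p = 0.928). The other Atf4 probe set was dim, at 2.39, 2.44 and 2.75 in KO livers and 2.39, 2.41 and 2.33 in WT livers, and lay under the limit on all arrays except KO replicate 3.

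Ddit3 encodes CHOP, a C/EBP-family factor that is linked to cell death under prolonged stress. It read 4.96, 4.65 and 5.13 in KO livers and 4.87, 4.61 and 5.17 in WT livers. Each group thus held both a low and a high pool, and the log2 change was 0.03 (95% interval -0.35 to 0.41, limma adjusted p = 0.977).

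Trib3 and Ppp1r15a are the feedback arm. Trib3 encodes a pseudokinase that binds ATF4 and dampens its activity and that also binds AKT. It read 4.59, 4.62 and 5.02 in KO livers and 4.68, 4.56 and 4.55 in WT livers. KO replicate 3 alone stood above the other arrays, and the log2 change was 0.15 (95% interval -0.14 to 0.44, limma adjusted p = 0.739). Without KO replicate 3 it was 0.01.

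Ppp1r15a encodes GADD34, the regulatory subunit that brings a phosphatase to eIF2 and so ends the response. It read 3.87, 4.48 and 4.15 in KO livers and 4.34, 4.15 and 3.87 in WT livers. The groups shared nearly the same lowest value, and the log2 change was 0.04 (95% interval -0.35 to 0.43, limma adjusted p = 0.958).

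Asns and Chac1 are enzymes among the targets. Asns encodes asparagine synthetase, which makes asparagine from aspartate and glutamine. It read 3.63, 5.25 and 5.35 in KO livers and 3.22, 3.06 and 4.42 in WT livers. KO replicates 2 and 3 were above every other array, but KO replicate 1 lay below WT replicate 3, so the groups overlapped. The mean was 4.74 ± 0.97 in KO livers and 3.57 ± 0.74 in WT livers (SD, n = 3 each), which is 2.26-fold higher in KO livers with a log2 change of 1.18 (95% interval 0.06 to 2.29, limma adjusted p = 0.507). The spread of Asns among arrays of one genotype was at the 99.9th percentile of all genes tested, and its difference between genotypes was at the 99.9th percentile in size.

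Chac1 encodes a gamma-glutamyl cyclotransferase that breaks down glutathione. It read 5.88, 5.73 and 5.92 in KO livers and 5.41, 5.30 and 5.38 in WT livers, so every KO array was above every WT array. Among all genes tested, 11.7% were above in this way, and Chac1 was the only one of the 6 genes in which the groups did not overlap. The mean was 5.84 ± 0.10 in KO livers and 5.37 ± 0.06 in WT livers (SD, n = 3 each), 1.39-fold higher in KO livers with a log2 change of 0.48 (SE 0.09, 95% interval 0.27 to 0.68). The unadjusted limma p was 0.000582 and the adjusted p = 0.145. Its spread within a genotype was at the 19.4th percentile and its difference at the 98.2nd percentile of all genes tested. Asns thus differed more and Chac1 more evenly, and neither passed.

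**Figure D2:**
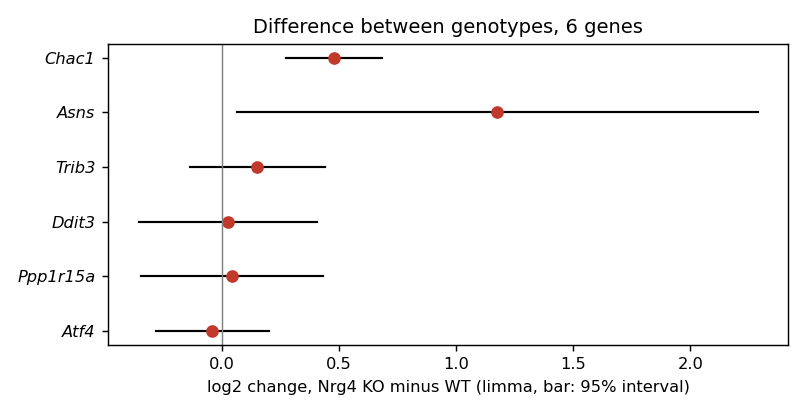
Log2 change of each gene, KO minus WT, as points with 95% intervals from limma as bars. The intervals of Chac1 (0.27 to 0.68) and Asns (0.06 to 2.29) lie above 0 before adjustment over all genes, and the other 4 intervals include 0.

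The control probe sets for nonspecific signal give a scale for these levels. Their highest value was 5.68, 5.84 and 5.78 on the KO arrays and 5.48, 5.29 and 5.47 on the WT arrays. It was thus higher on every KO array than on any WT array, as Chac1 was. The median of the controls was 1.65 to 1.76. Atf4 was above the highest control on 6 of 6 arrays and Chac1 on 3 of 6, while Ddit3, Trib3, Asns and Ppp1r15a were below it on all 6 arrays. These 4 genes were therefore measured at signals that some nonspecific controls also reached. The same holds for Chac1 on KO replicate 2 and WT replicates 1 and 3. The part of nonspecific signal in the Chac1 difference was not tested.

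The 6 genes did not follow one pattern over the arrays. Over the 6 arrays, which share the genotype difference, Pearson's r between members ranged from -0.62 for Ddit3 and Ppp1r15a to 0.60 for Asns and Chac1, and 11 of 15 pairs had an r above 0. With the mean of each genotype taken out, r was -0.09 for Asns and Chac1, -0.63 for Ddit3 and Ppp1r15a, 0.80 for Atf4 and Asns, and 0.82 for Ddit3 and Chac1. Centred on the mean of each gene, the 6 genes together averaged -0.12, 0.23 and 0.35 on the KO arrays and -0.15, -0.32 and 0.01 on the WT arrays. KO replicate 1 lay among the WT arrays by this measure. Asns weighed most in it because of its wide range.

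By likeness to the mean pattern of the 6 genes, each scaled to its own spread, the closest of 6228 other genes were Arf6, a small GTPase of membrane traffic (r = 0.998 over 6 arrays), and then Snrnp25, Ap3m2, Bysl and Tmem241, which had r of 0.982 to 0.986. Chac1 alone was most like Rplp1, a ribosomal stalk protein, at r = 0.995, and then like Sgsh and Ift74. Asns was most like Arhgap9, at r = 0.992, and then like Tmem186 and Dph5. Trib3 was closest to Pld4, Atf4 to Morc2a, Ddit3 to Ascl3 and Ppp1r15a to Zfp281. With 6 arrays and so many genes searched, high values of r are found for any pattern, and these are descriptions.

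Other genes of the pathway were examined in 7 lists, which held 70 tested genes in all. Of these, 0 were called by limma at an adjusted p under 0.05. At an unadjusted p under 0.05, 7 of 70 were higher and 1 lower in KO livers, against 7.36% higher and 2.18% lower among all genes tested. KO arrays were all above WT arrays in 7 of 70 and all below in 3, against 11.7% and 3.92% of all genes tested, so these counts were near the background. The median log2 change over the 70 genes was 0.06, close to that of all genes tested. Of the 70 genes, 45 had higher means in KO livers, against 63.4% of all genes tested.

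**Figure D3:**
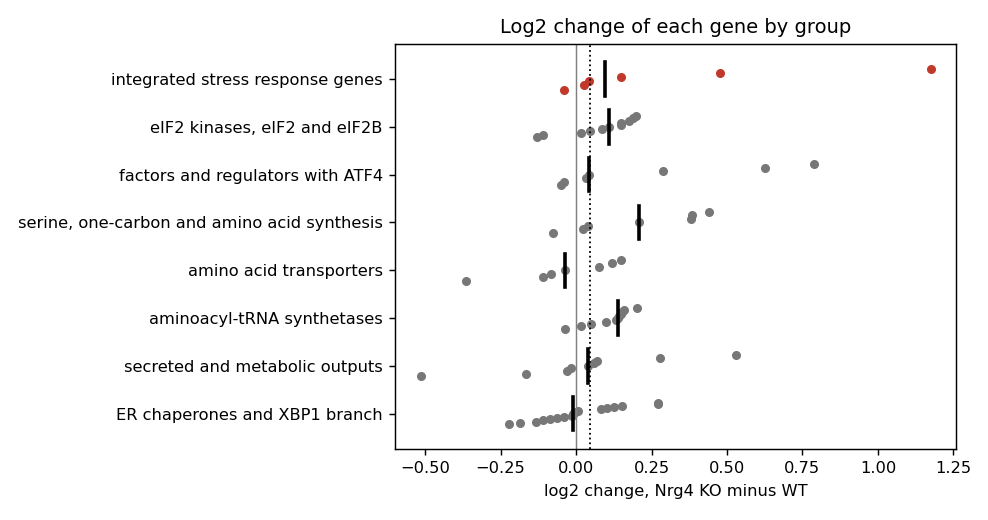
Log2 change, KO minus WT, of each tested gene in the 6 integrated stress response genes (red) and in 7 lists of other pathway genes (grey); thick bars are list medians and the dotted line is the median of all genes tested, 0.04. Asns at 1.18 lies farthest to the right, and list medians run from -0.04 for amino acid transporters to 0.21 for serine, one-carbon and amino acid synthesis.

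Upstream of ATF4, the eIF2 kinases, eIF2 and its exchange factor eIF2B differed little. Their list also held the regulators Gcn1, Impact and Ppp1r15b. In this list 9 of 11 tested genes had higher means in KO livers, against 63.4% of all genes tested. The median log2 change was 0.11, with a range of -0.13 to 0.20. The centred list mean was -0.095, 0.133 and 0.082 on the KO arrays and -0.036, -0.083 and -0.001 on the WT arrays. KO replicate 1 was thus the lowest of the 6 arrays. Eif2ak3, which encodes PERK, the kinase of the endoplasmic reticulum, was at 0.09. Eif2ak4, which encodes GCN2, the kinase that senses uncharged tRNA, was at 0.19 (limma adjusted p = 0.652). Impact, an inhibitor of GCN2, had the smallest p of the list at a log2 change of 0.20 (limma adjusted p = 0.55), and Eif2b4 was at 0.18. In Eif2b1, a subunit of eIF2B, the groups did not overlap, at 5.97, 6.11 and 5.97 in KO livers and 5.86, 5.92 and 5.93 in WT livers (log2 change 0.11, limma adjusted p = 0.716).

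Among the listed factors and regulators linked to ATF4, Ddit4 and Atf5 stood highest. Ddit4 encodes REDD1, an inhibitor of mTORC1, and read 4.56, 5.48 and 4.97 in KO livers and 3.99, 4.50 and 4.15 in WT livers. The groups did not overlap, and Ddit4 was 1.73-fold higher in KO livers (log2 change 0.79, limma adjusted p = 0.336). Atf5, a bZIP factor that is also under translational control, read 7.97, 8.58 and 8.83 in KO livers and 7.75, 7.86 and 7.88 in WT livers. Every KO array was above every WT array, with KO replicate 1 nearest to WT, and the log2 change was 0.63 (limma adjusted p = 0.364). Without KO replicate 1 the log2 change of Atf5 was 0.87 and it passed (limma adjusted p = 0.0492). In that run 17 genes were called over all genes, against 5 with all arrays. Atf5 passed in no other alternative. The next gene, Nupr1, was at 0.29. The list had 5 of 7 tested genes with higher means and a median of 0.04, and Atf3 was too dim to be tested.

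Of the genes of serine, one-carbon and amino acid synthesis, 6 of 7 tested were higher in KO livers, against 63.4% of all genes tested. Their centred mean on KO replicate 1 (-0.08) was below that on WT replicates 1 (-0.05) and 2 (-0.04). The list median was 0.21. This median was above that of the aminoacyl-tRNA synthetases (0.14), but below it without a filter on dim genes (0.12 against 0.14), without KO replicate 2 (0.07 against 0.08) and without WT replicate 3 (0.13 against 0.16). Gpt2, the mitochondrial alanine aminotransferase, read 9.48, 9.68 and 9.77 in KO livers and 9.16, 9.29 and 9.34 in WT livers. The groups did not overlap (log2 change 0.38, limma adjusted p = 0.321), and the other probe sets of Gpt2 were at 0.51 and 0.32. Phgdh, the first enzyme of serine synthesis, averaged 4.90 ± 0.21 in KO livers and 4.46 ± 0.25 in WT livers (SD, n = 3 each; log2 change 0.44, limma adjusted p = 0.422), with overlapping groups. Mthfd1l, a mitochondrial folate enzyme, was at 0.38 (limma adjusted p = 0.488). Psat1 was too dim to be tested. The list median was 0.40 without KO replicate 1.

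Amino acid transporters had a median of -0.04, with 3 of 7 tested genes higher. Slc7a1, the cationic amino acid transporter CAT1, read 3.75, 3.69 and 3.42 in KO livers and 3.84, 3.78 and 4.34 in WT livers. The KO arrays were all below the WT arrays, with narrow gaps, and the log2 change was -0.36 (limma adjusted p = 0.52). Slc3a2, the heavy chain of several transporters, was at 0.15 and Slc6a9 at -0.08. Slc7a11, the cystine transporter, was too dim to be tested.

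The list of aminoacyl-tRNA synthetases, which charge tRNAs, also held Xpot, a tRNA export receptor, at 0.02. In this list 10 of 11 tested genes had higher means in KO livers, by small amounts (median 0.14, range -0.04 to 0.20), against 63.4% of all genes tested. The centred list mean was -0.045, 0.117 and 0.092 on the KO arrays and -0.009, -0.118 and -0.037 on the WT arrays. KO replicate 1 thus lay below WT replicates 1 and 3. Wars was at 0.20, Nars at 0.15 and Eprs at 0.14, with limma adjusted p-values of 0.532, 0.603 and 0.676. The probe sets of Wars disagreed, since the others were at 0.05 and -0.14.

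Secreted and metabolic outputs of the pathway pointed in both directions. Fgf21, a liver hormone induced by ATF4 and also by PPAR alpha, read 5.22, 6.06 and 6.15 in KO livers and 6.25, 6.40 and 6.31 in WT livers. All KO arrays were below all WT arrays, with KO replicate 1 far the lowest (log2 change -0.51, limma adjusted p = 0.516). Cdkn1a, the cell cycle inhibitor p21, read 4.42, 4.75 and 4.38 in KO livers and 3.76, 4.17 and 4.04 in WT livers, also without overlap (log2 change 0.53, limma adjusted p = 0.309). A second probe set of Cdkn1a was at 0.68. Eif4ebp1, a repressor of cap-dependent translation, was at 0.28 on its main probe set and at -0.08 on the other. Of the 9 tested genes, 5 were higher, and the median was 0.04.

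**Figure D4:**
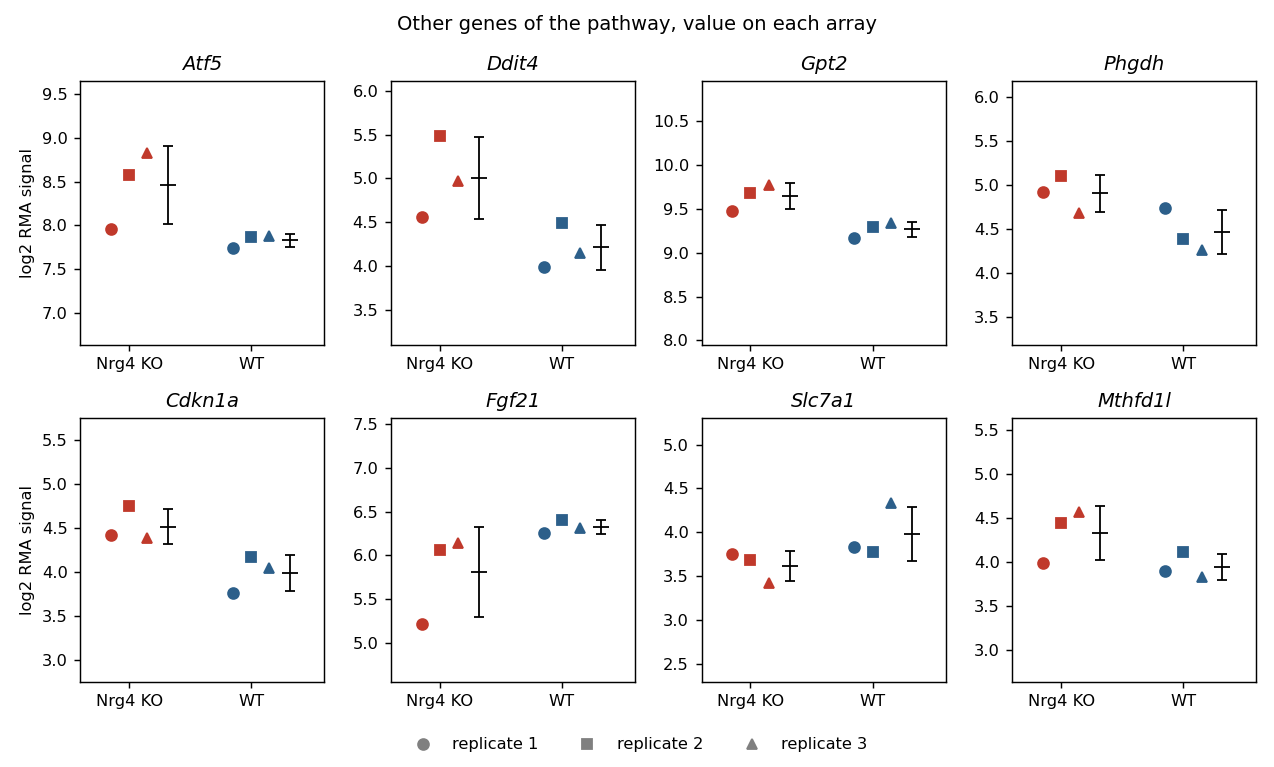
Log2 RMA signal of 8 other genes of the pathway on each array, KO in red left of WT in blue, with the mean ± SD (n = 3) beside each group. Atf5, Ddit4, Gpt2 and Cdkn1a have all KO arrays above all WT arrays and Fgf21 and Slc7a1 all below, and none of the 8 passed over all genes. The 8 were picked from those with the smallest p of their lists. Among all 70 tested pathway genes 7 were all above and 3 all below, against 11.7% and 3.92% of all genes tested.

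The chaperones of the endoplasmic reticulum and the XBP1 branch were set beside these genes. Their list, which also held Atf6, covers other arms of the unfolded protein response. Of 18 tested, 7 had higher and 11 lower means in KO livers (median -0.01, range -0.22 to 0.27). Hspa5, the chaperone BiP, averaged 9.60 ± 0.10 in KO livers and 9.69 ± 0.30 in WT livers (SD, n = 3 each; limma adjusted p = 0.883). Dnajc3, an inhibitor of PERK, was at -0.22 on its brightest probe set, with the others between -0.21 and 0.03, while Hyou1 and Manf were both at 0.27. The other probe set of Hyou1 was at 0.71. For Hsp90b1 the main probe set was at -0.01 and the other at -0.39. No difference between this list and the 6 integrated stress response genes was tested.

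The same letters TGATGNAA were found in promoters of 10 of the 62 pathway genes with an entry. These were Aars, Gars, Iars, Yars, Atf3, Nupr1, Slc7a11, Fgf21, Herpud1 and Vldlr. Of all 32851 promoters, which belong to 27025 genes, 3.97% held a match. That share counts single promoters, while a pathway gene was counted if any of its promoters matched. These shares are therefore not alike, and no enrichment was tested. Ddit4 and Atf5 had no match in the part searched. Gpt2 and Cdkn1a were not among the genes with a match, but their lists had entries for 7 of 8 and 8 of 10 genes.

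Signals of other cells and of RNA quality were also read on each array, beside Asns and Chac1. Against 63.4% of all genes tested, macrophage markers had higher means in KO livers in 6 of 6 genes (Adgre1, Clec4f, Cd5l, Vsig4, Mpeg1 and Csf1r). Their centred mean was -0.07, 0.24 and 0.38 on the KO arrays and -0.13, -0.26 and -0.17 on the WT arrays. KO replicate 1 was nearest to WT, as for Asns, while for Chac1 it was KO replicate 2. Endothelial markers were higher in 6 of 6 genes (0.03, 0.30 and 0.43 on KO arrays and -0.15, -0.20 and -0.41 on WT arrays), and so were stellate cell and matrix markers (0.17, 0.10 and 0.30 on KO arrays and -0.14, -0.21 and -0.22 on WT arrays). Hepatocyte markers gave -0.14, 0.11 and 0.13 on KO arrays and 0.01, 0.03 and -0.15 on WT arrays. Of the lymphocyte markers, 3 of 4 tested were higher, near the share of all genes tested, and Nkg7 was lower, at a log2 change of -0.15. Of the cholangiocyte markers, Krt7 and Krt19 were too dim to be tested and the 2 tested were higher, Epcam at a log2 change of 0.04 and Sox9 at 0.35. Sox9 read 3.52, 3.37 and 3.74 on KO arrays and 3.19, 3.13 and 3.26 on WT arrays, without overlap (limma adjusted p = 0.368). In these bulk samples a change in the number of cells of a type and a change in RNA per cell cannot be told apart.

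The control probe sets of Actb and Gapdh had a mean 5′ minus 3′ difference of -1.31, -0.70 and -0.65 on the KO arrays and -0.95, -0.78 and -0.96 on the WT arrays, so KO replicate 1 stood apart. On that array Asns was the lowest of the KO arrays, but Chac1, at 5.88, was not. All 3 control probe sets for 18S ribosomal RNA were lower on every KO array than on any WT array, and so separated the genotypes as Chac1 did. The one at the 5′ end had the widest gap, with 6.06, 6.71 and 5.61 on KO arrays and 8.12, 8.80 and 8.69 on WT arrays. The middle one had 6.43, 6.59 and 5.74 on KO arrays and 7.92, 8.14 and 8.03 on WT arrays. At the 3′ end the values were 6.89, 6.74 and 6.67 on KO arrays and 7.45, 7.65 and 7.73 on WT arrays. The part of these signals in the values of Asns and Chac1 was not tested. Without KO replicate 1 the log2 change was 1.73 for Asns (limma adjusted p = 0.119) and 0.46 for Chac1 (limma adjusted p = 0.119).

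**Figure D5:**
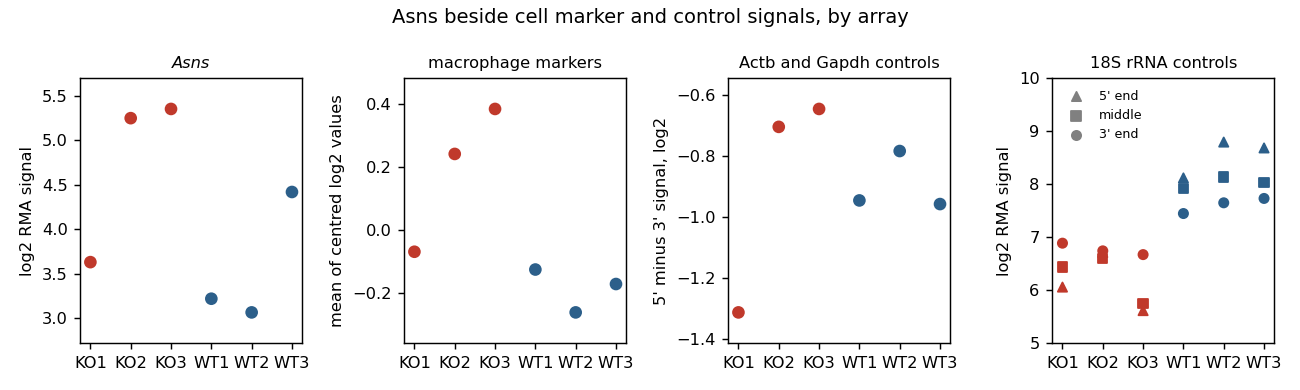
Asns signal, the centred mean of 6 macrophage markers, the mean 5′ minus 3′ difference of the control probe sets of Actb and Gapdh, and the 3 control probe sets for 18S ribosomal RNA (triangle 5′ end, square middle, circle 3′ end) on each array (log2 scales), KO arrays in red left of WT arrays in blue. KO replicate 1 has the lowest Asns of the KO arrays (3.63) and the lowest 5′ minus 3′ difference of all arrays (-1.31), and each 18S probe set is lower on all KO arrays than on all WT arrays.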

How the data were processed

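Total RNA from pooled liver was labelled with a 3′ IVT kit from 250 ng and hybridised to Affymetrix MG-430 PM arrays, per the labels' protocols. The authors deposited log2 values, and affy, RMA and limma are named without versions in the submitters' processing notes. RMA corrects background, equalises the distributions of the arrays and combines the probes of a set, so that a shift of most genes one way would be reduced. Of 45141 probe sets, 28898 had 1 gene symbol in the platform annotation, and the others entered no test. A gene was called dim and not tested when its mean was below the 40th percentile of all probe sets other than controls (log2 2.66), and 12466 genes were tested. KO and WT arrays were compared with limma 3.58.1 in R 4.3.3 (lmFit and eBayes, two-sided), adjusted by Benjamini-Hochberg over all genes tested, with a threshold of 0.05. With 3 arrays a group, the smallest p of an exact permutation test is 0.1, and the number of arrays limits the precision.

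The 6 genes were given by name, and they and the 7 pathway lists were chosen with earlier results of these data known. Named pathway genes are those with the smallest p of each list, plus pathway genes without overlap, other probe sets, Eif2ak3, Hspa5 and genes too dim to test, which were added after their values were seen. Of the symbols listed with markers, 9 had no probe set of their own and were not analysed here. Likeness was searched among genes with a spread at or above the median. Same-numbered KO and WT arrays did not deviate together (r of -0.15, 0.03 and -0.01), so the fit has no block. The alternatives were other normalizations, filters, variance priors and thresholds, array weights, other uses of probe sets, each array left out and the replicate number as a block. Figures were drawn with matplotlib 3.10.9.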

Additional observations from a re-analysis of the deposited data

How the results depend on the processing

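In all 17 alternatives 0 of the 6 integrated stress response genes passed at the alternative's threshold. The adjusted p of Chac1 lay between 0.0568 with array weights and 0.541 without KO replicate 3, and its log2 change between 0.44 and 0.53. For Asns the adjusted p lay between 0.107 and 0.919 and the log2 change between 0.87 and 1.73, and for Trib3 the log2 change lay between 0.01 and 0.23. The signs of the other genes were not fixed. Atf4 was at 0.047 with array weights and at 0.055 with the mean of its probe sets, and between -0.11 and 0.029 when 1 array was left out. Ddit3 was at -0.014 after another quantile normalization and between -0.11 and 0.17 when 1 array was left out, and Ppp1r15a between -0.11 and 0.19. Over all genes 5 were called, against 8 after another quantile normalization, 3 with the filter at the 60th percentile, 3 with the mean of all probe sets, 29 with a variance trend, 50 with array weights, 30 at an adjusted p under 0.10 and 2 with the replicate block. With 1 array left out 1 to 17 were called, the highest without KO replicate 1 and 1 or 2 without any other array. Pathway genes called numbered 0 to 1 with 1 array left out, the 1 being Atf5 without KO replicate 1. The causes were not tested. Ddit3, Trib3, Asns and Ppp1r15a lay under the brightest nonspecific control on every array, and Chac1 on KO replicate 2 and WT replicates 1 and 3.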
